A study of Mus musculus with 34 samples.

Results

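Midlife was examined in cortical astrocytes of male wild-type (WT) mice by setting the 12-month (12m) libraries, replicates 1 to 3, against the 3-month (3m) libraries, replicates 1 to 5. Members were taken by the age in each library's label, which gave 8 of the 34 libraries of a series running from early postnatal life to 18 months (18m). No treatment or altered allele separates the groups: both are WT, male and from cortex, and differ by the age on the label. Cells were isolated magnetically, and polyadenylated RNA was sequenced on a NovaSeq after SMART-Seq v4 amplification, a template-switching method for small amounts of RNA. Expression is given as TPM, a gene's share of all transcripts in a library, corrected for its length and scaled to a fixed sum. Whether the replicates are separate animals is not stated in the labels, so that p-values measure a spread between libraries that may be technical.

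Astrocytes of the young adult cortex take up glutamate and potassium, supply neurons with metabolites and cover blood vessels with their endfeet. They arise from radial glia and from local division of young astrocytes in early postnatal life, and dividing astrocytes are rare in the healthy adult cortex. Mitotic transcripts in an enriched preparation do not tell which cell type was dividing. In bulk libraries fewer cells of a type and less RNA per cell cannot be told apart.

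Astrocyte transcripts were abundant at both ages. The mean of 20 mature astrocyte markers in log2(TPM + 1) was 9.31, 9.39 and 9.30 in 12m replicates 1, 2 and 3, and ran between 8.98 and 9.33 in the 3m libraries. The 3 libraries of 12m were not alike in another respect. Genes listed at 0 TPM numbered 4556 in 12m replicate 1, 4532 in replicate 2 and 1615 in replicate 3, against 1155 to 1656 in the 3m libraries. Genes of chemoreceptors (olfactory, vomeronasal and taste receptors) together reached 44.6, 35.1 and 424.8 TPM at 12m, against 215.7 to 304.3 TPM at 3m. By both measures 12m replicate 3 stood with or above the 3m libraries and away from its own group. Correlations over all tested genes in log2(TPM + 1) were 0.993 between 12m replicates 1 and 2, and 0.972 and 0.963 between replicate 3 and these. Pairs of 3m libraries ran from 0.968 to 0.989. With the 3m libraries, replicate 3 correlated at 0.958 to 0.9745, replicate 1 at 0.9632 to 0.9801 and replicate 2 at 0.9564 to 0.9814. Genes in 1 library are not independent replicates, and these correlations are descriptions. Y-linked genes summed to 63.9 TPM in 12m replicate 2, against 235.1 and 186.2 TPM in 12m replicates 1 and 3 and 145.6 to 182.0 TPM at 3m. The cause of that low value was not tested.

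**Figure D1:**
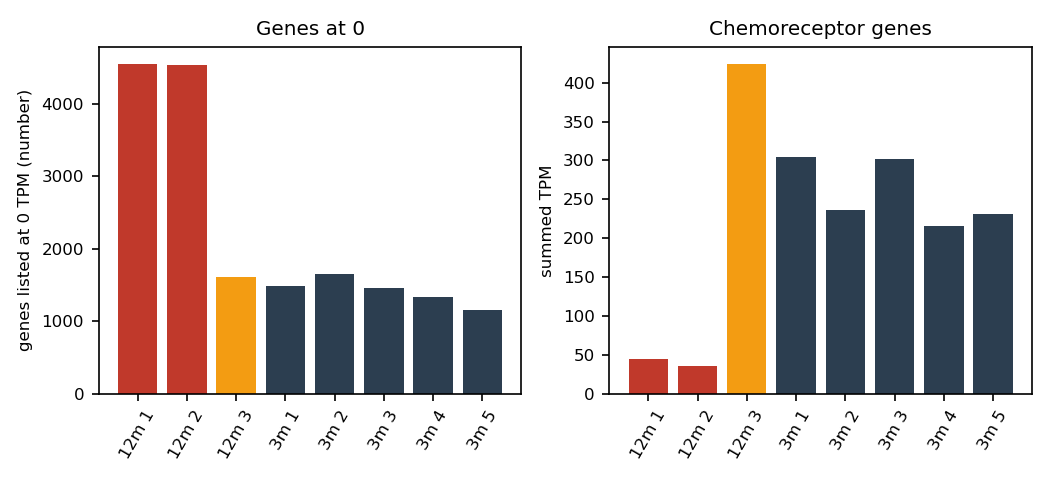
Left, number of genes listed at 0 TPM in each 12m and 3m library. Right, summed TPM of the chemoreceptor genes in the same libraries. Bars are single libraries. 12m replicate 3 (1615 genes at 0) lies in the range of the 3m libraries (1155 to 1656), and 12m replicates 1 and 2 (4556 and 4532) lie far above it.

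At 12m, 429 of 14590 tested genes passed at an adjusted p under 0.05, which is 2.94%. Of these, 319 fell (2.19%) and 110 rose (0.754%). Entry to the 12 largest falls and the 12 largest rises required no overlap between the ages. Where the separation of these genes is given below, it is therefore no test. The 12 largest falls included Cdk1, Ccnb1, Aurkb, Cdca3 and Cenpa, all of cell division. The 12 largest rises included the lipid enzyme gene Etnppl, the purine enzyme gene Xdh and the cytochrome P450 gene Cyp2d22. Differences are 12m minus 3m in log2(TPM + 1), which understates the change of genes of low level, and tests are limma's with Benjamini-Hochberg adjustment over all 14590 genes. The 12m and 3m libraries did not overlap for 1852 genes (12.7%), of which 1060 were higher at 12m (7.27%) and 792 lower (5.43%). Of the 319 genes that fell, 12m replicate 3 lay below every 3m library for 271, and it lay above every 3m library for 100 of the 110 that rose. Replicate 3 was part of the 12m mean on which these genes were called, so its position among them is a description from which nothing is read. Among all tested genes replicate 3 was below every 3m library for 15.4% and above every one for 35.5%.

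Whether replicate 3 goes with the other 12m libraries was asked by giving it a mean of its own in the model. Replicates 1 and 2 set against 3m gave 1198 called genes (8.21%), 1020 lower (6.99%) and 178 higher (1.22%). Of the 1020 lower genes, 119 were listed at 0 in both replicates and 45 were chemoreceptor genes, of 71 tested. Only these 71 of 1542 chemoreceptor genes passed the filter of at least 1 TPM in at least 3 of the 34 libraries. Genes at 0 in both replicates passed it through other libraries, and chemoreceptor genes could have done so too. The 119 and the 45 are therefore descriptions from which nothing is read. A mean of 5 TPM at 12m or 3m was reached by 502 of the 1020 and by 151 of the 178. The 178 held no chemoreceptor gene, and a gene at 0 in both replicates could not be among them. Replicate 3 alone set against 3m gave 9 (0.0617%), 4 lower (0.0274%) and 5 higher (0.0343%), with 1731 genes at an unadjusted p under 0.05. A lone library is assumed to vary like the other groups. Set against 3m in the same way, replicate 2 alone gave 362 calls and replicate 1 alone gave 198. The direction of the calls in replicate 3 depended on the setting: 7 were higher and 19 lower after median-of-ratios rescaling, 22 higher and 38 lower after quantile normalization, and 418 higher and 65 lower with no filter. Both comparisons use the same 3m libraries, so only genes called in each are given: Cdca8, Aurkb, Kif20a and Jpt1 were lower and Prss50 was higher in both. With the number of genes at 0 in each library as a covariate, 8 genes were called between 12m and 3m. They were these 5 together with Lrig1, H4c6 and CR974586.2. Within 12m that number was 4556, 4532 and 1615, so it nearly coincides with the split of replicate 3 from replicates 1 and 2. The fit is therefore no check separate from the comparison of replicate 3 with 3m. The calls of all other genes named below ended with that covariate. Calls numbered 1199 without 12m replicate 3, 134 without replicate 1, 120 without replicate 2 and 277 without 3m replicate 5. They numbered 189 when only the 3m and 12m libraries entered the fit. Of the calls, 25.6% were higher at 12m as deposited, 34.9% after median-of-ratios rescaling (644 calls) and 48.5% after quantile normalization (754 calls).

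Cell division genes were lower at 12m in all 3 libraries. Of 30 cell cycle genes tested, 25 fell and none rose, beside 2.19% of all tested genes that fell. The median difference was -0.97, against -0.0093 over all tested genes, and 29 of 30 differences were negative. The mean of the 30 genes in log2(TPM + 1) was 2.50, 2.38 and 2.96 in 12m replicates 1, 2 and 3, and 3.44 to 4.02 in the 3m libraries, with no overlap. For 25 of the 30, 12m replicate 3 lay below every 3m library, beside 15.4% of all tested genes, and its own median difference from 3m was -0.62. Replicates 1 and 2 had a median difference from 3m of -1.15. The count of members that fell was 14 without 12m replicate 1, 12 without replicate 2, 10 in the fit of the 2 ages only and 1, Aurkb, with genes at 0 as a covariate, where 29 of 30 differences stayed negative.

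Aurkb, Cdca8, Birc5 and Incenp encode the chromosomal passenger complex, in which Aurora B kinase corrects the attachment of chromosomes to the spindle and controls the final cut between daughter cells. Aurkb (chromosome 11, 69045647 to 69051664, GRCm38, forward strand) had 4.22, 3.45 and 5.37 TPM in 12m replicates 1, 2 and 3, against 14.9, 14.9, 19.4, 17.5 and 14.8 TPM in the 3m libraries. All 3 libraries of 12m lay far below the 3m range, and the difference was -1.70 ± 0.17 (SE, limma adjusted p = 3.97e-07). Replicate 3 alone differed from 3m by -1.43 ± 0.24 (limma adjusted p = 0.0136). Cdca8 (borealin; chromosome 4, 124918465 to 124939311, reverse strand) had 5.56, 5.51 and 4.74 TPM at 12m, against 21.2, 16.2, 17.3, 21.8 and 14.7 TPM at 3m. Here replicate 3 was the lowest of all 8 libraries, and the difference was -1.60 ± 0.21 over 12m (limma adjusted p = 2.92e-05) and -1.73 ± 0.31 in replicate 3 alone (limma adjusted p = 0.0136). Birc5 (survivin) had 4.84, 2.38 and 10.3 TPM at 12m, against 12.0 to 14.5 TPM at 3m, a difference of -1.24 (limma adjusted p = 0.0093). Incenp, the scaffold of the complex, was named after its values were seen, and had 7.69, 7.54 and 14.6 TPM at 12m, against 12.0 to 18.7 TPM at 3m. Its groups overlapped through replicate 3, and its difference of -0.61 did not pass (limma adjusted p = 0.0887).

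Kif20a, a kinesin of the central spindle that carries this complex, had 1.72, 1.33 and 0.984 TPM at 12m, against 5.503, 4.496, 5.495, 7.852 and 3.841 TPM at 3m. The groups were apart and replicate 3 was again the lowest library, with a difference of -1.44 ± 0.20 over 12m (limma adjusted p = 7.61e-05) and -1.67 ± 0.30 in replicate 3 alone (limma adjusted p = 0.0136). Jpt1 (chromosome 11, 115497353 to 115514387, reverse strand), a microtubule-associated protein, was the most abundant of the 4, at 66.5, 63.9 and 60.6 TPM at 12m, against 117, 128, 96.6, 155 and 158 TPM at 3m. Its difference was -1.01 ± 0.13 (limma adjusted p = 2.65e-05). Aurkb, Cdca8, Kif20a and Jpt1 stayed below the threshold in all 18 alternatives of the 12m against 3m comparison. Among these alternatives, genes at 0 as a covariate is no separate check. In the comparison of replicate 3 alone with 3m, the adjusted p in the fit of only the 2 ages was 0.0554 for Aurkb, 0.119 for Kif20a and 0.13 for Jpt1, and with the replicate block it was 0.0734 for Cdca8 and 0.0744 for Jpt1.

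Other mitotic genes were also lower in every 12m library, with replicate 3 the nearest to 3m for those given here except Cdk1. Cdk1, the kinase that drives entry into mitosis, had 7.41, 7.91 and 6.71 TPM at 12m, against 30.2, 20.9, 23.6, 50.5 and 22.9 TPM at 3m. Replicate 3 was its lowest library, and the difference was -1.80 ± 0.31 (limma adjusted p = 0.000811). Ccnb1, the cyclin partner of Cdk1, had 7.79, 4.09 and 10.9 TPM at 12m, against 28.5, 23.1, 21.2, 32.4 and 24.9 TPM at 3m, and differed by -1.72 ± 0.27 (limma adjusted p = 0.000378). Ube2c, which feeds ubiquitin to the anaphase-promoting complex, had 10.8, 9.29 and 17.4 TPM at 12m, against 42.4, 33.3, 32.9, 56.3 and 31.7 TPM at 3m, and differed by -1.59 ± 0.24 (limma adjusted p = 0.000279). None of these overlapped between the ages. Cenpa, the histone H3 variant of centromeres, had 6.03, 3.41 and 8.39 TPM at 12m, against 17.7 to 22.2 TPM at 3m. Cdca3, which targets a mitotic inhibitor for destruction, had 5.03, 2.71 and 7.13 TPM at 12m, against 10.9 to 25.8 TPM at 3m. Cenpa fell by 1.63 and Cdca3 by 1.64. Top2a, the topoisomerase that untangles sister chromosomes, and Tpx2, a spindle assembly factor, also fell, with mean levels at 12m of 3.498 ± 0.895 and 2.61 ± 0.541 TPM (SD, n = 3), against 10.9 ± 2.31 and 8.70 ± 2.91 TPM (SD, n = 5) at 3m.

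The proliferation marker Mki67 was low in all libraries, at 0.501, 0.601 and 0.944 TPM at 12m, against 1.57 to 2.75 TPM at 3m. It fell by 0.81 ± 0.18 (limma adjusted p = 0.00807), which became 0.0885 without 12m replicate 1 and 0.0634 without replicate 2. Among genes of DNA replication, Mcm7, part of the replicative helicase, fell by 0.81, with 16.5, 16.7 and 18.3 TPM at 12m, against 27.8 to 40.7 TPM at 3m. The 5 members that did not pass were Mcm6, Mcm3, E2f1, Rrm1 and Pcna. Pcna, the sliding clamp of DNA polymerase that also serves DNA repair, had 68.2, 84.4 and 73.1 TPM at 12m, against 72.7 to 78.7 TPM at 3m. Its groups overlapped fully.

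**Figure D2:**
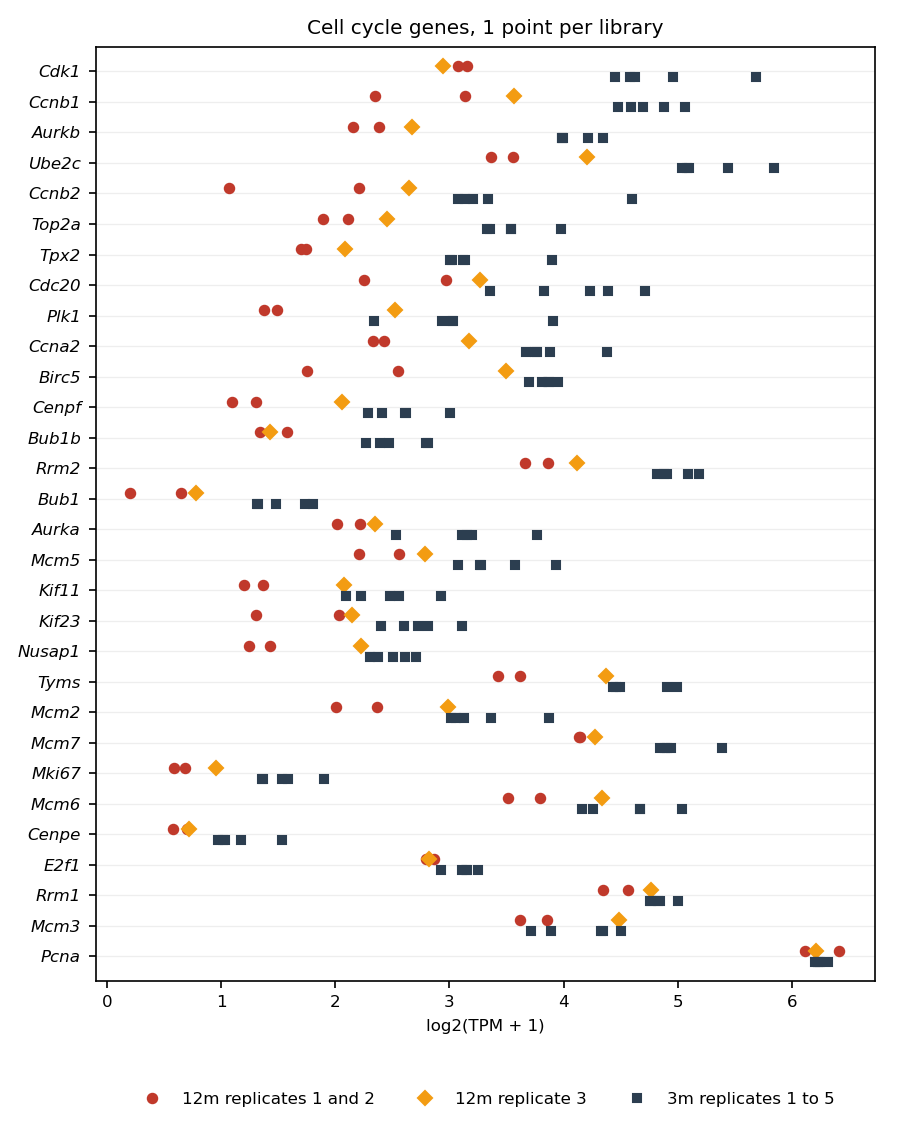
Level in log2(TPM + 1) of the 30 cell cycle genes tested, 1 point per library, ordered by the difference between 12m and 3m with the most negative at the top. In each row the upper points are 12m libraries (circles, replicates 1 and 2, and a diamond, replicate 3) and the squares below are 3m libraries. In 25 rows all 12m points lie left of all 3m points, and the rows at the bottom, such as Pcna, overlap.

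The promoters of several of these genes are shown because the members moved together and because late cell cycle genes are known to be controlled through a CHR element (cell cycle genes homology region) and CCAAT boxes near the start site. The sequences are RefSeq promoters (GRCm38.p6, from 250 bases before to 50 bases after the RefSeq start), written 5′ to 3′ on the gene's strand. For Cdca8 this window lies inside the GENCODE gene span given above, which begins further upstream, so the annotations place its start differently. Capitals mark TTTGAA, its variant TTTAAA and CCAAT on either strand (TTCAAA and ATTGG on the other). Matches may overlap, as TTTGAA and ATTGG do in Cdca8 and CCAAT and ATTGG do in Ube2c. Positions are chr4:124936868-124937167 on the reverse strand for Cdca8, chr10:69352863-69353162 on the reverse strand for Cdk1, chr13:100786437-100786736 on the reverse strand for Ccnb1 and chr2:164769679-164769978 on the forward strand for Ube2c.
Cdca8: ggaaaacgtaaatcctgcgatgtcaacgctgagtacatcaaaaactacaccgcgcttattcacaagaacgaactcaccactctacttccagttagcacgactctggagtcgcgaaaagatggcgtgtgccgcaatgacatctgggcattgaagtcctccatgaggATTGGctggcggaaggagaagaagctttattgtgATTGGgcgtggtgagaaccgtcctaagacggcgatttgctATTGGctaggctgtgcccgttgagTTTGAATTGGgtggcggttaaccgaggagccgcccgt
Cdk1: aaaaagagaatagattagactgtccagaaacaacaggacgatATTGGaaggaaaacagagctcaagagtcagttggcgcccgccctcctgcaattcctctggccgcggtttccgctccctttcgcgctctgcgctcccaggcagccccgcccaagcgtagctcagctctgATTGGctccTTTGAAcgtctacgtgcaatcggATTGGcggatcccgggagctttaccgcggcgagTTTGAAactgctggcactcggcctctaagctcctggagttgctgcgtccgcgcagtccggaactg
Ccnb1: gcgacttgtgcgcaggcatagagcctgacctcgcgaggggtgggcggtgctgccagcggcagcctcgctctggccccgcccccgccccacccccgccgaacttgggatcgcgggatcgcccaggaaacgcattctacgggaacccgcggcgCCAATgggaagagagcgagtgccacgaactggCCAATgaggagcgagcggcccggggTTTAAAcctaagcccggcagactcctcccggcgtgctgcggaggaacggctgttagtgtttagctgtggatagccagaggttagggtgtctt
Ube2c: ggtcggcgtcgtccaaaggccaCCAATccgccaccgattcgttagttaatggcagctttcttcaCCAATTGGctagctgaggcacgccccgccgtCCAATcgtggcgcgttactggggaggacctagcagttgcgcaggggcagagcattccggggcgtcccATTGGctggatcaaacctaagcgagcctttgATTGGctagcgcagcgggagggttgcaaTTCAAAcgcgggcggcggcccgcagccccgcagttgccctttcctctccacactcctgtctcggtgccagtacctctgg
Of the 30 cell cycle symbols, 27 had a promoter entry, while Aurkb did not. Cdca8 is not among the 30, and its promoter is shown in addition. TTTGAA was present in 13 of the 27 (48.1%), against 20.2% of 27025 genes, and TTTAAA in 8 (29.6%), against 14.9%. CCAAT was present in 23 (85.2%), against 41.1% of genes. Cdca8 held 1 TTTGAA and 4 CCAAT matches, Cdk1 held 2 and 3, and Ube2c held 1 and 6. Ccnb1 held TTTAAA once and CCAAT 2 times, with no TTTGAA in this window. A match is a description of letters, and no binding was measured here.

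Among chromatin genes, 3 of 20 DNA methylation and Polycomb genes fell and 1 rose, with a list median of 0.026, beside 2.19% and 0.754% of all tested genes. Without 12m replicate 2, 1 fell, without replicate 3, 5 fell, and without replicate 1 or 3m replicate 4 none rose. Mbd2, which reads methylated DNA and recruits a repressive complex, had 20.8, 20.9 and 35.4 TPM at 12m, against 66.2 to 74.8 TPM at 3m. The 3m libraries lay close together and all 12m libraries were well below them, with a difference of -1.44 ± 0.27 (limma adjusted p = 0.00243). A pair of paralogs of Polycomb repressive complex 1 moved in opposite directions. Cbx8, a chromobox protein that binds methylated histone tails, had 7.06, 6.53 and 7.20 TPM at 12m, against 11.0 to 13.5 TPM at 3m, a difference of -0.71 ± 0.15 (limma adjusted p = 0.00766). Cbx7, another chromobox protein, had 34.2, 23.9 and 26.7 TPM at 12m, against 14.5 to 21.1 TPM at 3m, a difference of 0.70 ± 0.17 (limma adjusted p = 0.021). Ezh2, the histone methyltransferase of Polycomb repressive complex 2, had 10.1, 7.20 and 11.4 TPM at 12m, against 12.5 to 20.6 TPM at 3m, and fell by 0.78 ± 0.19 (limma adjusted p = 0.0159). None of these 4 overlapped between the ages. Without 12m replicate 1 the adjusted p was 0.235 for Cbx7 and 0.0631 for Ezh2, and without replicate 2 it was 0.0665 for Cbx8 and 0.195 for Ezh2. Cbx7 had 0.0558 without 3m replicate 4.

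Of 16 progenitor and immature astroglial genes, 4 fell, Top2a, Tnc and Sox11 among them, and none rose, with a median of -0.43, beside 2.19% of all tested genes that fell. The count was 1 without 12m replicate 1, without replicate 2 and in the fit of the 2 ages, and 2 without 3m replicate 4. Tnc, the matrix glycoprotein tenascin C of developing and reactive glia (chromosome 4, 63959785 to 64047015, reverse strand), had 5.35, 3.17 and 18.2 TPM at 12m, against 33.1, 20.7, 26.3, 27.2 and 21.4 TPM at 3m. The ages did not overlap, but replicate 3 lay close to the 3m range while replicates 1 and 2 lay far below it. The difference was -1.72 ± 0.40 over 12m (limma adjusted p = 0.0131), -2.36 ± 0.39 in replicates 1 and 2 (limma adjusted p = 0.000284) and -0.46 ± 0.51 in replicate 3 (limma adjusted p = 0.728). Without 12m replicate 1 the adjusted p was 0.117 for Tnc, and without replicate 2 it was 0.191. Sox11, a transcription factor of immature cells, fell by 0.52 (limma adjusted p = 0.0438; above the threshold without any 1 of 12m replicates 1 and 2 or 3m replicates 1, 2, 4 and 5, between 0.0646 and 0.201). Of 13 genes that regulate or clear synapses, Thbs4 and Nrg1 fell and Mertk rose, beside 2.19% of all tested genes that fell and 0.754% that rose. Thbs4, a thrombospondin that promotes synapse formation, had 19.8, 26.6 and 23.4 TPM at 12m, against 32.3 to 51.9 TPM at 3m, a difference of -0.79 ± 0.22 (limma adjusted p = 0.0368). Mertk, a receptor through which astrocytes engulf synapses, had 176, 215 and 94.0 TPM at 12m, against 50.4, 76.9, 118, 58.3 and 61.1 TPM at 3m. Its groups overlapped through 12m replicate 3 and 3m replicate 3. Its difference was 1.12 ± 0.30 (limma adjusted p = 0.0355). Nrg1, a growth factor for ErbB receptors, fell by 0.68 ± 0.18 (limma adjusted p = 0.0334). These 3 passed narrowly: without 12m replicate 1 the adjusted p was 0.254 for Thbs4, 0.215 for Mertk and 0.203 for Nrg1, and without replicate 2 it was 0.081, 0.273 and 0.305. Their calls also ended without 1 of several 3m libraries: replicates 2 to 5 for Thbs4 (0.057 to 0.0835), replicates 1, 4 and 5 for Mertk (0.0814 to 0.0863) and replicates 1, 3 and 4 for Nrg1 (0.0607 to 0.0716).

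The largest rise was in Etnppl, whose enzyme breaks down phosphoethanolamine, a building block of membrane lipids (chromosome 3, 130617448 to 130637521, forward strand). It had 448, 626 and 69.6 TPM in 12m replicates 1, 2 and 3, against 17.8, 18.6, 31.7, 2.28 and 6.204 TPM in the 3m libraries. All 12m libraries were above all 3m libraries, which the rule for the largest rises required, and replicate 3 was far below its group. The difference was 4.46 ± 0.85 (limma adjusted p = 0.00333), and 2.52 ± 1.19 in replicate 3 alone (limma adjusted p = 0.403). Without 12m replicate 2 the adjusted p was 0.0559. Etnppl varied widely within both ages.

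Prss50, which encodes a serine protease best known from testis (chromosome 9, 110857967 to 110864629, forward strand), had the smallest standard error among the 12 largest rises. It had 17.9, 16.2 and 19.4 TPM at 12m, against 7.57, 6.72, 8.006, 4.9997 and 6.569 TPM at 3m. The groups were well apart and replicate 3 was the highest library, with a difference of 1.29 ± 0.17 (limma adjusted p = 3.91e-05) and of 1.40 ± 0.26 in replicate 3 alone (limma adjusted p = 0.0136). The call of all 3 libraries against 3m held in every one of the 18 alternatives, among which genes at 0 as a covariate is no separate check. Replicate 3 alone had an adjusted p of 0.0903 in the fit of the 2 ages and 0.106 with the replicate block.

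Of the 12 largest rises, 3 encode enzymes of oxidation (Xdh, Fmo2 and Cyp2d22). Xdh, the oxidoreductase that ends purine breakdown in uric acid, had 14.1, 10.03 and 9.15 TPM at 12m, against 1.12 to 1.71 TPM at 3m, a difference of 2.29 ± 0.46 (limma adjusted p = 0.00427). Fmo2, a flavin-containing monooxygenase, had 8.75, 8.43 and 5.47 TPM at 12m, against 0.644 to 2.32 TPM at 3m, a difference of 1.89 ± 0.42 (limma adjusted p = 0.0103). Both were higher in all 12m libraries, which the rule for the largest rises required. Cyp2d22, a cytochrome P450 that oxidises lipids and drugs (chromosome 15, 82370527 to 82380260, reverse strand), had 159, 183 and 161 TPM at 12m, against 68.6, 73.8, 90.2, 30.7 and 56.4 TPM at 3m. Its 12m libraries were close together, replicate 3 included, and the difference was 1.46 ± 0.21 (limma adjusted p = 0.000138; 0.0516 in the fit of the 2 ages). Cyp4f15, a P450 of fatty acid hydroxylation, had 201, 216 and 165 TPM at 12m, against 84.2 to 127 TPM at 3m, a difference of 0.94 ± 0.15 (limma adjusted p = 0.000298). P450 families have close paralogs, between which reads could have been split.

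Cyp2d22 and Cyp4f15 were among 17 genes of eicosanoid P450 and epoxide hydrolase metabolism, of which 2 rose and 2 fell, beside 0.754% and 2.19% of all tested genes. The 2 that fell were Cyp4x1, at 1.46 TPM or less in each of the 8 libraries (limma adjusted p = 0.0483, above the threshold without any 1 library except 12m replicate 3 and 3m replicate 1), and Ptgds. Ptgds, prostaglandin D2 synthase, which meningeal, choroid plexus and oligodendrocyte cells also make, had 8509, 4515 and 7529 TPM at 12m, against 12797 to 33205 TPM at 3m. It fell by 1.52 ± 0.36 (limma adjusted p = 0.0154; 0.162 without 12m replicate 2). Xdh had an adjusted p of 0.0616 with a pseudocount of 0.1, and Fmo2 of 0.0877 without 12m replicate 1 and 0.0731 without replicate 2.

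Cables1, which links cyclin-dependent kinases to Abl kinase, had 93.8, 83.5 and 70.5 TPM at 12m, against 16.2 to 36.9 TPM at 3m, a difference of 1.53 ± 0.28 (limma adjusted p = 0.00201). Pmaip1, the pro-apoptotic protein Noxa, had 5.80, 4.53 and 6.77 TPM at 12m, against 0.854 to 2.696 TPM at 3m, a difference of 1.43 ± 0.32 (limma adjusted p = 0.00973). The ages did not overlap for either gene, which was a condition for entering the largest rises. Lgi1, a secreted protein of synapses whose loss causes epilepsy, had 38.4, 33.9 and 95.6 TPM at 12m, against 5.19 to 18.2 TPM at 3m, and passed narrowly (difference 2.05 ± 0.57, limma adjusted p = 0.0483). Its adjusted p was above the threshold without any one of the 8 libraries, between 0.0528 and 0.133. Pmaip1 had an adjusted p of 0.0632 without 12m replicate 1. Acer2, Wfdc17 and Cpeb1 completed the 12 largest rises with H2-Q7, with differences of 1.42, 1.39 and 1.37. These 3 lost their calls without any 1 of several libraries, 12m replicates 1 and 2 among them: the adjusted p lay between 0.0696 and 0.23 for Acer2 (3m replicates 3, 4 and 5), between 0.0532 and 0.23 for Wfdc17 (3m replicates 1, 3, 4 and 5) and between 0.0667 and 0.198 for Cpeb1 (12m replicate 3 and 3m replicates 3, 4 and 5).

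Lrig1 and Icosl were called in replicate 3 and not in replicates 1 and 2. Lrig1, a membrane protein that restrains growth factor receptors, had 62.7, 59.5 and 110 TPM at 12m, against 39.3, 52.5, 37.6, 58.4 and 39.2 TPM at 3m. The groups were apart by a small gap, with a difference of 0.72 ± 0.18 over 12m (limma adjusted p = 0.0204) and 1.28 ± 0.24 in replicate 3 (limma adjusted p = 0.0136). Icosl, a ligand for a T cell costimulatory receptor, had 15.0, 13.5 and 26.9 TPM at 12m, against 6.08 to 12.7 TPM at 3m, a difference of 0.89 ± 0.20 (limma adjusted p = 0.0101). Replicate 3 was the highest library for both genes. The remaining genes called in replicate 3, the histone gene H4c6 and CR974586.2, overlapped between the ages because replicates 1 and 2 were like 3m. H4c6 lost its call without any 1 of 3m replicates 1 to 4 (0.0523 to 0.0734), and in the fit of the 2 ages the adjusted p of replicate 3 against 3m was 0.122 for Lrig1 and 0.127 for Icosl.

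**Figure D3:**
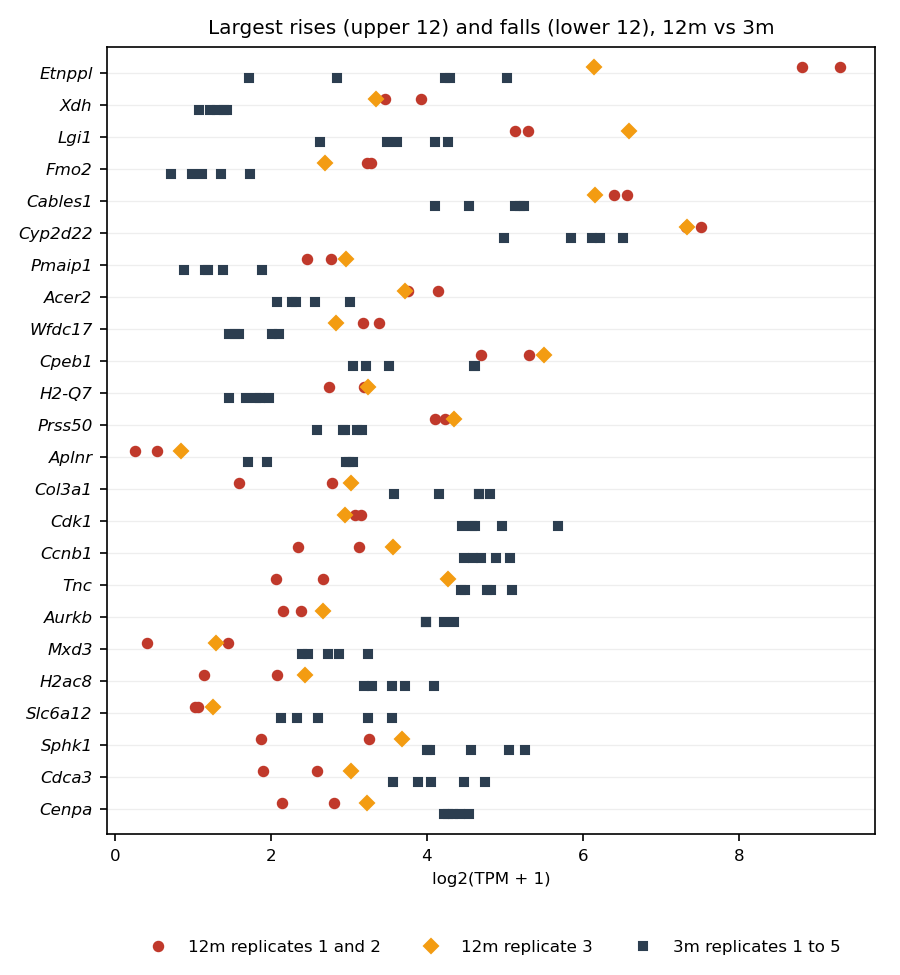
Level in log2(TPM + 1) of the 12 largest rises (upper rows) and the 12 largest falls (lower rows) among called genes, 1 point per library. In each row the upper points are 12m libraries (circles, replicates 1 and 2, and a diamond, replicate 3) and the squares below are 3m libraries. No overlap was a condition for being shown, so the gap between the ages is no test. The rule also placed replicate 3 on the 12m side of 3m in every row, so nothing is read from that side. Replicate 3 lay close to the others for Cyp2d22 and Prss50 and nearer to 3m for Etnppl and Tnc.

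Among the falls outside the cell cycle, Aplnr, the apelin receptor of vascular and progenitor cells, had 0.190, 0.452 and 0.800 TPM at 12m, against 7.27, 6.80, 2.27, 6.99 and 2.85 TPM at 3m. It was near 0 at 12m in all libraries and differed by -1.99 ± 0.29 (limma adjusted p = 0.000128). Mxd3, a MAX-binding repressor found in proliferating cells, had 0.324, 1.72 and 1.46 TPM at 12m, against 4.29 to 8.48 TPM at 3m, a difference of -1.70 ± 0.22 (limma adjusted p = 2.66e-05). Sphk1, a sphingosine kinase, had 8.53, 2.68 and 11.9 TPM at 12m, against 15.0 to 37.2 TPM at 3m, a difference of -1.65 ± 0.39 (limma adjusted p = 0.0156; 0.23 without 12m replicate 2).

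Of 8 markers of fibroblasts and meninges, 5 fell (Col3a1, Col1a1, Col1a2, Slc6a13 and Igf2), beside 2.19% of all tested genes. The count was 3 without 12m replicate 1, 1 without replicate 2 and 1 in the fit of the 2 ages. The summed level of the 8 was 318.7, 147.9 and 345.6 TPM at 12m, against 337.0 to 834.2 TPM at 3m, so that replicate 3 lay within the 3m range and the others below it. Col3a1, a fibrillar collagen chain, had 5.86, 2.02 and 7.16 TPM at 12m, against 16.8, 10.9, 26.9, 24.3 and 24.5 TPM at 3m, a difference of -1.91 ± 0.34 (limma adjusted p = 0.00113). Slc6a13, a GABA and taurine transporter of the meninges, had 53.7, 22.2 and 46.5 TPM at 12m, against 66.0 to 182 TPM at 3m, and fell by 1.46 ± 0.31 (limma adjusted p = 0.00751). Slc6a12, the betaine and GABA transporter, had 1.10, 1.04 and 1.39 TPM at 12m, against 3.39 to 10.8 TPM at 3m. None of these 3 genes overlapped between the ages. Without 12m replicate 2 the adjusted p was 0.131 for Slc6a13, 0.142 for Col1a1 and 0.0687 for Slc6a12, and without replicate 1 it was 0.0528 for Col1a1 and 0.0692 for Slc6a12. Ptgds moved with this list, whose part in its fall was not tested.

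Immune genes were called in some lists and not in others. Of 12 genes of MHC class I presentation, by which cells show peptides to T cells, 2 rose (H2-Q7 and H2-K1). The list median was 0.35, all 12 differences were positive and 5 were without overlap, beside 0.754% of all tested genes that rose and 7.27% that were higher without overlap. Without 12m replicate 1 none rose, and without replicate 3, 1 rose. The sum of the list, which takes in 1 member that was not tested, was 1548, 1236 and 1706 TPM at 12m, against 1078 to 1172 TPM at 3m. H2-K1, a classical class I heavy chain, had 293, 228 and 317 TPM at 12m, against 184, 179, 171, 200 and 175 TPM at 3m. Replicate 3 was highest and replicate 2 lowest among the 12m libraries, all above 3m, with a difference of 0.60 ± 0.15 (limma adjusted p = 0.02). H2-Q7, a class I gene of the Qa region, had 8.18, 5.70 and 8.51 TPM at 12m, against 1.75 to 2.92 TPM at 3m, a difference of 1.31 ± 0.29 (limma adjusted p = 0.0103). Genes of this family are near-identical and could have shared reads, which leaves single members uncertain. Without 12m replicate 1 the adjusted p was 0.138 for H2-K1 and 0.0869 for H2-Q7, and without replicate 3 it was 0.0621 for H2-K1. Markers of endothelial cells, which express class I strongly, were higher too: their sum was 3417, 2617 and 3735 TPM at 12m, against 1756 to 2385 TPM at 3m, with all 14 differences positive and none called. In the fit of the 2 ages 3 of the 14 were called higher, beside 80 of all 14590 tested genes. Of the 14, 5 were higher at 12m without overlap, beside 7.27% of all tested genes. The part of endothelial transcripts in the class I differences was not tested.

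Of 12 genes of the neuroinflammatory astrocyte state induced by microglial signals, Fbln5, C3 and Amigo2 rose and none fell, with a median of 0.42, beside 0.754% of all tested genes that rose. The count was 1 without 12m replicate 2 or without replicate 3, and 0 in the fit of the 2 ages. Amigo2, an adhesion protein of the synaptic membrane, had 16.2, 26.3 and 18.2 TPM at 12m, against 8.82, 8.88, 14.2, 7.63 and 6.68 TPM at 3m. It was above 3m in every 12m library, with a difference of 1.06 ± 0.18 (limma adjusted p = 0.00054; 0.0629 in the fit of the 2 ages). C3, the central complement component, had 1.62, 2.33 and 4.10 TPM at 12m, against 0.420 to 1.11 TPM at 3m, a difference of 1.13 ± 0.30 (limma adjusted p = 0.0334). Its call was lost without any 1 of the 12m libraries (adjusted p = 0.0506 without replicate 1, 0.113 without replicate 2 and 0.109 without replicate 3), and without any 1 of 3m replicates 1, 2, 3 and 5 (0.0516 to 0.0779). C3 was the only 1 of 14 complement genes called, beside 2.94% of all tested genes. Fbln5, an elastic fibre protein also made in vessels, had 31.6, 34.3 and 49.9 TPM at 12m, against 11.9 to 27.0 TPM at 3m, a difference of 0.999 ± 0.24 (limma adjusted p = 0.0159; 0.0599 without replicate 2 and 0.0591 without replicate 3). No member of the pan-reactive list (14 genes) or the interferon-stimulated list (23 genes) was called. In replicates 1 and 2 against 3m, 2 pan-reactive genes were lower, beside 6.99% of all tested genes.

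Genes for the core work of astrocytes gave few calls. Of 20 mature astrocyte markers, 1 rose and none fell, with a median of 0.11, beside 0.754% of all tested genes that rose and 2.19% that fell. The member that rose was Ntsr2, a low-affinity neurotensin receptor, which had 2980, 1991 and 1739 TPM at 12m, against 1167 to 1263 TPM at 3m. It was higher in every 12m library, with a difference of 0.86 ± 0.21 (limma adjusted p = 0.0167; 0.238 without 12m replicate 1 and 0.0599 without replicate 2). The glutamate transporter genes Slc1a3 and Slc1a2 had mean levels of 3317 ± 10.5 and 433 ± 67.9 TPM (SD, n = 3) at 12m and of 3003 ± 347 and 432 ± 97.9 TPM (SD, n = 5) at 3m. The water channel gene Aqp4 averaged 639 ± 85.1 TPM at 12m (SD, n = 3) and 716 ± 37.8 TPM at 3m (SD, n = 5). Gja1 (connexin 43) averaged 2628 ± 209 TPM at 12m (SD, n = 3) and 2353 ± 328 TPM at 3m (SD, n = 5). These 4 overlapped between the ages, and none was called. No member was called in the lists for glutamate and GABA handling (15 genes, median 0.032), potassium, water and pH homeostasis (15 genes, 0.076), glycolysis (23 genes, 0.063), fatty acid oxidation (19 genes, 0.035) or cholesterol synthesis (23 genes, 0.11). The lists for the respiratory chain, proteasome, lysosome, splicing, immediate early genes, the circadian clock, metallothionein and glutathione, and senescence also held no called gene. Replicates 1 and 2 against 3m gave more calls, beside 1.22% of all tested genes higher and 6.99% lower: 3 mature markers were higher and 1 lower, 2 genes of glutamate and GABA handling were higher and 3 of potassium, water and pH homeostasis were higher. In that comparison 1 gene of the circadian clock was higher, 1 gene each of splicing and fatty acid oxidation was lower, and 1 senescence gene was higher and 1 lower. A p that misses the threshold does not show that levels were equal.

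Genes of cytosolic ribosomal proteins, 32 in all, had a negative difference in every case with a median of -0.20, and none was called. In replicate 3 the median was -0.50 and 29 of 32 lay below every 3m library, beside 15.4% of all tested genes. Their sum was 9151, 10637 and 7252 TPM at 12m, against 9114 to 12114 TPM at 3m, so that replicate 3 stood below the 3m range and the others stood within it. Without 12m replicate 3 the median was -0.065, with 24 of 32 negative. The calls in the lists that follow stand beside 2.94% of all tested genes that were called. Of 21 heat shock and unfolded protein genes, only Calr, a calcium-binding chaperone of the endoplasmic reticulum, was called: it had 271, 263 and 303 TPM at 12m, against 320 to 732 TPM at 3m (difference -0.65 ± 0.17, limma adjusted p = 0.0351; 0.167 without 12m replicate 1, 0.18 without replicate 2, 0.0885 without 3m replicate 4 and 0.109 without 3m replicate 5). Of 14 apolipoprotein and sterol efflux genes, only Cyp27a1, the sterol 27-hydroxylase, was called, with 13.7, 11.8 and 15.8 TPM at 12m, against 6.11 to 8.67 TPM at 3m (difference 0.77 ± 0.18, limma adjusted p = 0.015; 0.0864 without 12m replicate 1).

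Replicate 3 was also tested directly against replicates 1 and 2, without any 3m library in the contrast. Of the tested genes, 292 differed (2%), 279 higher in replicate 3 (1.91%) and 13 lower (0.0891%). The median difference over all tested genes was 0.17, and -0.0051 after median-of-ratios rescaling, which gave 218 calls. The genes higher in replicate 3 were mostly of low level. Their median was 2.39 TPM in replicate 3 and 0.115 TPM in the mean of replicates 1 and 2, beside 1.45 TPM in the mean of 3m. For 89 of the 279 both replicates 1 and 2 were listed at 0, and 38 were chemoreceptor genes, of 71 that were tested. Genes at 0 in replicates 1 and 2 passed the filter only through other libraries, and chemoreceptor genes could have done so too. The 89 and the 38 are therefore descriptions. Akr1cl, an aldo-keto reductase gene, had 6.77 TPM in replicate 3, was listed at 0 in replicates 1 and 2, and had 2.42 to 4.87 TPM at 3m. With a filter of 5 TPM 12 genes were called, and with no filter 1649.

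Fewer genes of higher level differed. Ass1, argininosuccinate synthase of the citrulline and nitric oxide cycle, had 43.3 TPM in replicate 3, against 7.79 and 3.97 TPM in replicates 1 and 2, with 15.3 to 28.9 TPM at 3m. The 3m range lay between them, and replicate 3 was higher by 2.75 ± 0.35 (limma adjusted p = 8.42e-05). Tsc22d3 (GILZ), a transcript induced by glucocorticoids, had 360 TPM in replicate 3, against 1956 and 2087 TPM in replicates 1 and 2, with 283 to 751 TPM at 3m. Gjb6, the astrocyte gap junction protein connexin 30, had 619 TPM in replicate 3, against 1652 and 1913 TPM in replicates 1 and 2, with 540 to 1100 TPM at 3m. For both, replicate 3 lay within the 3m range and the others above it. Replicate 3 differed from the others by -2.49 ± 0.49 for Tsc22d3 (limma adjusted p = 0.00503) and by -1.52 ± 0.37 for Gjb6 (limma adjusted p = 0.0223). In the fit of the 2 ages the adjusted p was 0.0614 and 0.129, and for Gjb6 it was 0.0642 without 12m replicate 1 and 0.168 without replicate 2. Smim3 (36.2 TPM against 157 and 189) and Gpr3, an orphan receptor (2.36 TPM against 7.10 and 7.04), were lower in replicate 3 and below every 3m library. Gpr3 had an adjusted p of 0.057 without 12m replicate 2. Dmp1, a phosphoprotein of bone matrix, had 7.17 TPM in replicate 3, against 22.96 and 34.8 TPM in replicates 1 and 2, with 1.60 to 7.40 TPM at 3m. Dmp1 differed by -1.84 ± 0.50 in replicate 3 against the others (limma adjusted p = 0.0478; 0.0712 without 12m replicate 1 and 0.373 without replicate 2). Of the 6 genes with the most negative differences (Tsc22d3, Smim3, Dmp1, Map7d2, Gjb6 and Gpr3), Dmp1 alone was also called between 12m and 3m, higher by 1.90 ± 0.36 (limma adjusted p = 0.00251; 0.0626 without 12m replicate 2).

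Gfap, the intermediate filament that rises in reactive astrocytes, had 333, 292 and 954 TPM in 12m replicates 1, 2 and 3, against 686, 432, 899, 685 and 991 TPM at 3m. Replicates 1 and 2 lay below the 3m range and replicate 3 near its top. The difference was -0.65 ± 0.33 over 12m (limma adjusted p = 0.316), -1.18 ± 0.32 in replicates 1 and 2 (limma adjusted p = 0.0217) and 0.42 ± 0.42 in replicate 3 (limma adjusted p = 0.692). Replicate 3 differed from the others by 1.61 ± 0.47, which did not pass (limma adjusted p = 0.0793).

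**Figure D4:**
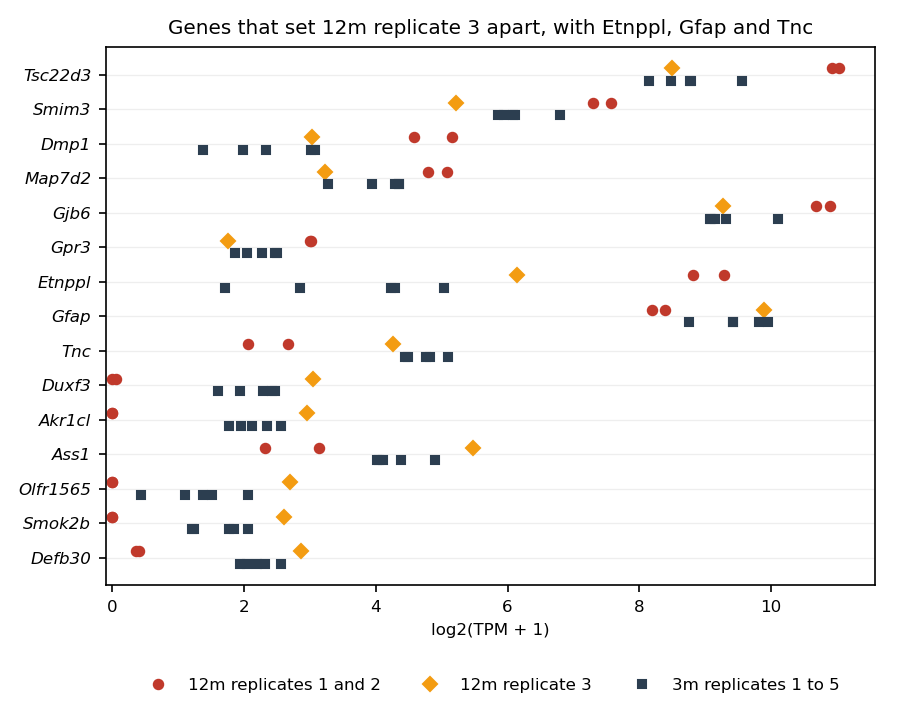
Level in log2(TPM + 1), 1 point per library, of the 6 genes with the largest negative differences between 12m replicate 3 and replicates 1 and 2 (top), of Etnppl, Gfap and Tnc, and of the 6 with the largest positive differences (bottom). In each row the upper points are 12m libraries (circles, replicates 1 and 2, and a diamond, replicate 3) and the squares below are 3m libraries. For Tsc22d3, Dmp1 and Gjb6 the diamond lies among the squares, and for Akr1cl, Olfr1565 and Smok2b replicates 1 and 2 are at 0.

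Transcripts of other cells also differed between the 12m libraries. Oligodendrocyte markers (13 genes) summed to 399.5 TPM in replicate 3, against 2037 and 2673 TPM in replicates 1 and 2, with 415.7 to 2243 TPM at 3m. Neuronal markers (12 genes) summed to 93.5 TPM in replicate 3, against 270.5 and 391.7 TPM in replicates 1 and 2, with 161.2 to 611.4 TPM at 3m. Microglial markers (15 genes) summed to 157.2 TPM in replicate 3, against 299.98 and 317.9 TPM in replicates 1 and 2, with 168.1 to 306.7 TPM at 3m. By these sums replicate 3 lay below the 3m range for all 3 lists. By the list mean in log2(TPM + 1) it did so for neuronal and microglial markers. The oligodendrocyte mean in replicate 3 was 2.735, within the 3m range of 2.632 to 4.542. Ependymal markers (9 genes) ran the other way, at 1800 TPM in replicate 3, against 830.6 and 698.5 TPM in replicates 1 and 2, with 1169 to 3744 TPM at 3m. Erythroid genes (7 genes, 6 of them tested, haemoglobins among them) summed to 45500, 17106 and 10742 TPM in 12m replicates 1, 2 and 3, against 4302 to 8865 TPM at 3m. No gene of these 5 lists was called between 12m and 3m. In replicates 1 and 2 against 3m, 4 of the 9 ependymal genes were lower, beside 6.99% of all tested genes, and 2 of the 13 oligodendrocyte genes were higher, beside 1.22%. The part of these cells in the other differences was not tested.

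**Figure D5:**
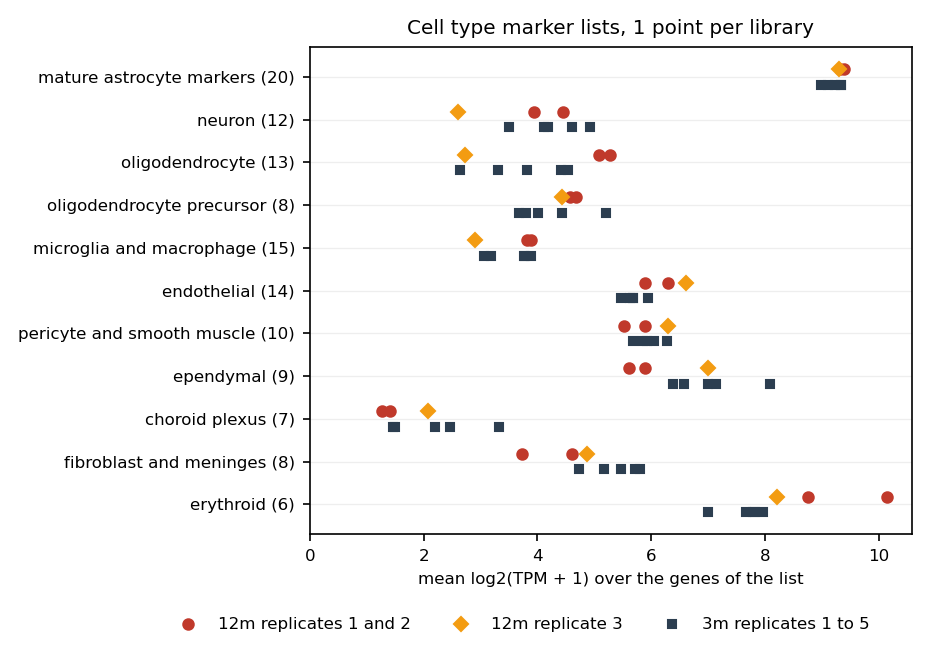
Mean log2(TPM + 1) over each marker list (number of genes tested in brackets), 1 point per library. In each row the upper points are 12m libraries (circles, replicates 1 and 2, and a diamond, replicate 3) and the squares below are 3m libraries. Mature astrocyte markers lie close together in all libraries, fibroblast markers lie below 3m in 12m replicates 1 and 2 but not in replicate 3, erythroid markers lie higher in all 12m libraries, and 12m replicate 3 stands apart from replicates 1 and 2 for neuronal, oligodendrocyte and ependymal markers.

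The neighbouring ages place the 12m values. Mean levels of Aurkb were 16.3 ± 2.07 TPM at 3m (SD, n = 5), 4.83 ± 0.774 TPM at 6m (SD, n = 5), 4.35 ± 0.968 TPM at 12m (SD, n = 3) and 3.39 ± 0.904 TPM at 18m (SD, n = 4), so the low level was present at 6m. The list mean of the cell cycle genes ran from 2.48 to 3.28 at 6m and from 2.22 to 2.56 at 18m. Etnppl averaged 15.3 ± 11.6 TPM at 3m (SD, n = 5), 104 ± 85.2 TPM at 6m, 381 ± 284 TPM at 12m (SD, n = 3) and 143 ± 117 TPM at 18m. Its mean was highest at 12m, where it rests on replicates 1 and 2. Xdh averaged 1.45 ± 0.237 TPM at 3m (SD, n = 5), 4.69 ± 4.79 TPM at 6m, 11.1 ± 2.67 TPM at 12m (SD, n = 3) and 3.18 ± 1.21 TPM at 18m. Mbd2 averaged 69.5 ± 3.25 TPM at 3m (SD, n = 5), 51.6 ± 5.89 TPM at 6m, 25.7 ± 8.40 TPM at 12m (SD, n = 3) and 23.1 ± 10.3 TPM at 18m. The differences between 12m and these other ages were not tested here. Genes listed at 0 numbered 1216 to 1704 in the 6m libraries and 4109 to 4654 in the 18m libraries, so that 6m shares the range of 3m and of 12m replicate 3.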

How the data were processed

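The deposited values were TPM, made by the authors, 1 column per library. Per the submitters' processing notes, Trim Galore 0.6.4, STAR 2.7.1a, RSEM 1.2.28, DESeq2 1.36.0 and build mm10 were used; the role of each is not given in the sources used here. TPM keep no read counts, so depth is unknown and no counting interval is given. Of 20613 genes with values, the 14590 with at least 1 TPM in at least 3 of the 34 libraries were tested as log2(TPM + 1), with 1 mean per age over all libraries, in limma 3.58.1 (R 4.3.3, statmod 1.5.0; empirical Bayes with trend and robust settings), adjusted by the Benjamini-Hochberg method and called under 0.05. A second model gave 12m replicate 3 its own mean. Members and the 40 gene lists were chosen with earlier results of these data known.

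Named genes were the 12 largest rises and falls (called, at least 5 TPM, no overlap, no predicted or clone name), the 8 largest in each direction called in both replicates 1 and 2 and replicate 3 (5 qualified), the 6 largest each way within 12m, the 3 of smallest p in each list, and 15 fixed markers, 158 in all, with positions from the GENCODE annotation of GRCm38. Some list members outside that rule (Birc5, Cbx7, Col1a2, Cyp4x1, Igf2, Mcm7 and the uncalled cell cycle genes) and Icosl, Lrig1, H4c6 and CR974586.2 were named after their values were seen. Not every gene the rule names is reported here. In lists, symbols shared by several identifiers were kept apart, and 11 list symbols were not tested. The method was tested on simulated data. Settings tried in turn were array weights, quantile normalization, rescaling by median of ratios, a 5 TPM filter or none, a pseudocount of 0.1, a replicate block, only the 2 ages, a fold of at least 2, genes at 0 as a covariate and leaving out each library. Plots used Python 3.11.15 with pandas 2.3.3 and matplotlib 3.10.9.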

Additional observations from a re-analysis of the deposited data

Results flagged for a closer look

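In the 3m group, 1 library stood away from the other 4 for 3 of 90 genes and marker sums examined by Dixon's criterion at the 95% level. Chance flags about 1 in 20 groups. Tpx2 was at 3.895 in 3m replicate 4 in log2(TPM + 1), with the lowest library at 3.007, and all 12m libraries lay below all of them. Gjb6 was at 10.105 in 3m replicate 3, and without that library the adjusted p of the difference between 12m and 3m was 0.0175. Smim3 was at 6.800 in 3m replicate 3, which was still below 12m replicates 1 and 2.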

How the results depend on the processing

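The 429 calls between 12m and 3m became 648 with array weights, 159 with a fold of at least 2, 8 with genes at 0 as a covariate, 644 with median-of-ratios rescaling, 189 with only the 2 ages and 754 with quantile normalization, and 120 to 1199 when 1 library was left out. The 1198 calls of 12m replicates 1 and 2 against 3m became 3089 with array weights, 563 with a filter of 5 TPM and 492 with a fold of at least 2, and 198 to 1400 when 1 library was left out. The 9 calls of replicate 3 against 3m became 649 with array weights, 26 with median-of-ratios rescaling, 483 with no filter, 60 with quantile normalization and 5 with the replicate block, and 9 to 12 when 1 library was left out. The 292 calls of replicate 3 against replicates 1 and 2 became 1596 with array weights, 12 with a filter of 5 TPM, 1649 with no filter, 118 with only the 2 ages and 63 with quantile normalization, and 82 to 322 when 1 library was left out. The causes were not tested. Of calls in replicates 1 and 2 against 3m, 14.9% were higher, and 32.3% after median-of-ratios rescaling and 45.3% after quantile normalization; of the 292, 95.5% were higher, and 82.6% after median-of-ratios rescaling.

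The replicate block, under which 374 genes were called between 12m and 3m, rests on numbers that do not pair libraries: correlations of same-numbered deviations were -0.10, 0.44 and -0.11, and only replicate 2 correlated best with its own number. Among uncalled genes the sign of the difference turned for Aqp4 (0.22), Gfap (0.54), Gjb6 (-0.15), Tsc22d3 (-0.34), Slc1a2 (-0.17) and Pcna (-0.11) with genes at 0 as a covariate. It also turned for Slc1a2 with the block (-0.15), without 12m replicate 2 (-0.089), 3m replicate 4 (-0.094) or 3m replicate 5 (-0.0018; up to 0.1388 without 12m replicate 3), and for Pcna with quantile normalization (-0.0012), without 12m replicate 2 (-0.082) or without 3m replicates 1, 2 or 4 (-0.0065, -0.0006 and -0.0011; up to 0.0702 without 12m replicate 1). Of 63 genes examined between 12m and 3m, 48 lost their call with genes at 0 as a covariate, 27 without 12m replicate 2 and 25 without replicate 1. Rescaling by median of ratios moved the median of all genes in replicate 3 against 3m to 0.0047, against 0.12 as deposited. With 3 libraries at 12m, of which 1 differs in genes at 0, and no read counts, precision is limited.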

Other observations

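Genes known to be induced by glucocorticoids were looked at after Tsc22d3 had been seen, and no test was made of them as a group. Zbtb16, a zinc finger factor, had 33.0, 24.4 and 7.44 TPM in 12m replicates 1, 2 and 3, against 4.63 to 8.08 TPM at 3m. Klf9 had 156, 132 and 82.9 TPM at 12m, against 63.7 to 92.4 TPM at 3m, and Cdkn1a had 107, 78.8 and 45.9 TPM, against 30.1 to 50.3 TPM at 3m. Fkbp5 had 9.98, 9.75 and 3.63 TPM at 12m, against 2.84 to 7.22 TPM at 3m. In all 4, replicates 1 and 2 lay above every 3m library and replicate 3 lay within the 3m range. The same held for Sgk1 and Map3k6, which were also looked at. Sgk1 had 111, 92.8 and 54.0 TPM at 12m, against 46.2 to 65.3 TPM at 3m. Map3k6 had 6.91, 5.55 and 2.80 TPM at 12m, against 1.83 to 3.19 TPM at 3m. The difference between replicate 3 and the others did not pass for any of them (limma adjusted p = 0.109 for Zbtb16, 0.204 for Klf9, 0.352 for Cdkn1a and 0.283 for Fkbp5).

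The low Y-linked sum of 12m replicate 2 was shared by its 4 genes. Eif2s3y had 32.6 TPM there, against 159.6 and 115 TPM in 12m replicates 1 and 3, Ddx3y had 18.9 TPM, against 49.8 and 44.3 TPM, Uty had 7.56 TPM, against 14.6 and 16.8 TPM, and Kdm5d had 4.85 TPM, against 11.1 and 10.2 TPM. None of the 4 was called between 12m and 3m.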
